A study of Mus musculus with 6 samples.

Results

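The 32 genes described here encode the machinery of glucose use: transporters that bring glucose in and carry lactate out, the enzymes of glycolysis with their isoforms, the kinases that set the level of fructose-2,6-bisphosphate, and regulators tied to the hypoxia-inducible factor (HIF). They were chosen by symbol, with earlier results of these data known, and all 32 were found among the 16179 rows of the deposited table. Expression was measured by RNA sequencing in microglia, the resident macrophages of the brain, sorted from hippocampi of male mice aged 10 months, of strain B6.129S4(FVB)-Grntm1.1Far/Mmja. Every animal carried the progranulin knockout, and wild-type mice were not analysed here. Reads of Grn, the targeted gene, were still present, with 416, 625 and 990.1 normalised reads in the BODIPY-low and 468, 657 and 1614 in the BODIPY-high group (limma adjusted p = 0.675), and where in the gene they lie cannot be read from gene counts. Live CD11b+CD45lo cells were split by BODIPY, a dye of neutral lipids, into lipid droplet-low (BODIPY-low) and lipid droplet-high (BODIPY-high) fractions, with 3 libraries each, and each library came from pooled hippocampi of 2 mice. The comparison asks how microglia rich in lipid droplets differ from those with few.

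Glycolysis splits glucose into pyruvate in the cytosol. Hexokinase traps glucose as its phosphate, phosphofructokinase commits it to breakdown, and pyruvate kinase and lactate dehydrogenase end the path, with lactate leaving through monocarboxylate transporters. HIF, a transcription factor held down by oxygen-dependent prolyl hydroxylases, raises many of these genes when oxygen is short or when macrophages are activated, by binding sites with a core of ACGTG or GCGTG.

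The letters of that core are present in many of these promoters, which are shown for members that rose and for members that did not pass the test. The 250 bases before the outermost RefSeq start (build GRCm38.p6) were searched for ACGTG and GCGTG on both strands. RefSeq windows were matched for 31 of the 32 members, all but Slc2a3. At least 1 match was found in 24 of these 31 windows (77.4%), against 38.6% of 27025 windows of all genes. The windows of all genes were not matched to the members for expression or for content of CG, which both cores contain, so no enrichment is read from these shares. Among members that rose, described below, 8 of 14 windows held a match, among members tested and not called 15 of 16 did, and the window of the untested Eno1 held 1. These counts depend on the start chosen. Hk1, Aldoa and Pkm, which rose, held no match before the outermost start but did before an inner start. Gpi1, Tpi1 and Eno2, which rose, and Bpgm, which was not called, had no match in any window. A match is a string of letters and not a shown binding site, and palindromic CACGTG counts once on each strand. The 5 windows below carry the matches in capitals, run 5′ to 3′ along the gene, and end at the base before the start.

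Pgk1, the phosphoglycerate kinase, rose and has its window at chrX:106186850-106187099 on the plus strand, with 2 matches. Ldha, which rose, at chr7:46845554-46845803 on the plus strand, has 5, with its CACGTG palindromes counted on each strand. Ldhb, which rose more on the log2 scale than Ldha, at chr6:142507958-142508207 on the minus strand, has 1. Hk2 and Slc16a1, which did not pass the test, at chr6:82774455-82774704 on the minus strand and chr3:104638414-104638663 on the plus strand, have 2 and 4.
Pgk1: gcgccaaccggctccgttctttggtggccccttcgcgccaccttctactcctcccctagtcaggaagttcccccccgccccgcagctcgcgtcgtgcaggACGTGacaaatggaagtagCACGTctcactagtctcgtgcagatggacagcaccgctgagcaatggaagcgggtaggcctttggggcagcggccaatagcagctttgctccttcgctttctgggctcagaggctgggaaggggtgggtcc
Ldha: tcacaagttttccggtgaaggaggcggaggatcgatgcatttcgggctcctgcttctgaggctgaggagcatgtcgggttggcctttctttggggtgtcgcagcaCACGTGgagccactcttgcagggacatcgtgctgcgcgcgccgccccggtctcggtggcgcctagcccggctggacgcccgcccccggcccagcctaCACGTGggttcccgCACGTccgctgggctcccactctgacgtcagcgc
Ldhb: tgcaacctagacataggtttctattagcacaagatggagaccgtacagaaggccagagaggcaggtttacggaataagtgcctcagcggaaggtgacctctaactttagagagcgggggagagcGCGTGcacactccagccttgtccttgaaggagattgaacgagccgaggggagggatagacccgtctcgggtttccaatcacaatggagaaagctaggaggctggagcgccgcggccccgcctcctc
Hk2: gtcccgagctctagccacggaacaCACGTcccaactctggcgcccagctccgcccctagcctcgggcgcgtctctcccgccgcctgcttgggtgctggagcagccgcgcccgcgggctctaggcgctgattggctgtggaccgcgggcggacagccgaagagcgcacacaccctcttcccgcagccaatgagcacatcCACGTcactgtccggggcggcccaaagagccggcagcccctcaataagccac
Slc16a1: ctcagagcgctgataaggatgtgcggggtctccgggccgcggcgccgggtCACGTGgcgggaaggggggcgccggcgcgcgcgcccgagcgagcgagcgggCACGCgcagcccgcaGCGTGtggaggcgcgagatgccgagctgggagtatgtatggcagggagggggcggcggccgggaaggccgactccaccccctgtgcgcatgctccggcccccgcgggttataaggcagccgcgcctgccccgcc

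Libraries held between 24982215 and 34899425 reads, recovered from the deposited values, which are read counts divided by 1 size factor per library and are called normalised reads here. Each gene was tested with limma on log2(normalised reads + 1) in the whole table, keeping the 12821 genes whose mean over the 6 libraries was 10 or more, with calls made at an adjusted p (Benjamini-Hochberg) under 0.05. Values are listed for replicates 1, 2 and 3 of the BODIPY-low group first and, after "against", for those of the BODIPY-high group. Fold changes are the BODIPY-high mean minus the BODIPY-low mean on that log2 scale, which understates the change of genes with low values. The labels do not say whether a BODIPY-low and a BODIPY-high library share a pool of mice, so p-values measure the spread between these 6 libraries. All 10 microglial markers (among them P2ry12, Tmem119 and Csf1r) were present in both groups, with summed normalised reads from 1676180 to 1921520 in BODIPY-low and from 1499900 to 1636470 in BODIPY-high libraries, and 2 of the 10, Cx3cr1 and Gpr34, fell (log2 fold changes -0.39 and -0.41). Markers of choroid plexus and ependyma were higher in BODIPY-high libraries, with 11 of 11 tested markers called and sums from 3770 to 18737 against 151836 to 265988. Neutrophil markers were lower, with 9 of 10 tested markers called and sums from 31165 to 82941 against 200.2 to 2394. The part that either cell type has in the results below was not tested, and fewer cells of a type and less RNA per cell cannot be told apart in bulk libraries. All 11 choroid plexus markers were at least detected in every BODIPY-high library, and Cxcr2 of the neutrophil list was listed at 0 in BODIPY-high replicates 2 and 3.

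Most glycolytic enzymes were called as higher in BODIPY-high microglia by limma. None of the transporters on either side of the pathway and none of the HIF-linked regulators was, although Bnip3 and Egln1 were higher in every BODIPY-high library. Of 31 tested members 14 rose and 1 fell, against 9.79% of all tested genes that rose and 3.52% that fell. All 14 rises were among the 18 tested enzymes from hexokinase to lactate dehydrogenase. None of the 5 transporters, the 3 tested kinases of fructose-2,6-bisphosphate and the 5 HIF-linked regulators rose by limma. For these 13 genes edgeR called 0 rises and DESeq2 1. With 9.79% of all tested genes rising, sets this small would hold few or no rises, so their lack of rises is near that share. At an unadjusted p under 0.05 in limma the group held 3 genes, of which 1 was higher, and the share of all genes at that threshold was not taken. The median log2 fold change was 0.60 over the enzymes, -0.31 over the transporters, 0.23 over the HIF-linked regulators and -0.01 over all tested genes. By edgeR 13 members rose and 1 fell, against 9.48% and 3.33% of all tested genes, and by DESeq2 15 and 1, against 11.2% and 4.9%. A limma fit blocked on replicate number had 15 that rose and 2 that fell, against 11.3% and 5.93%, adding Bnip3 to the rises and Slc2a6 to the falls. Groups did not overlap in 17 members that were higher and 3 that were lower, against 18% and 13.4% of all tested genes. Eno1 was present in the table but too low to test.

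**Figure D1:**
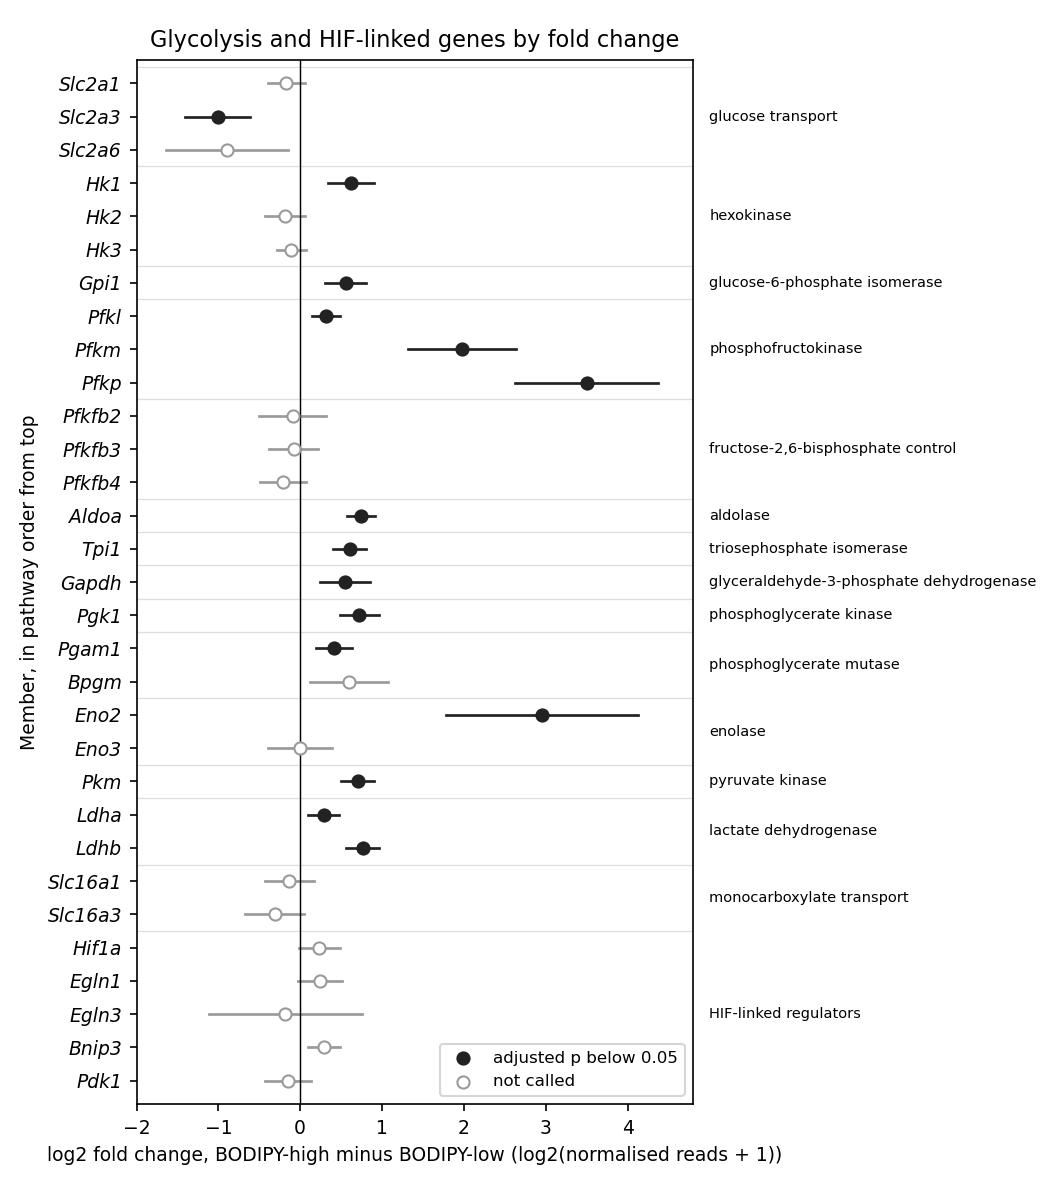
Log2 fold change of the 31 tested members (BODIPY-high minus BODIPY-low, on log2(normalised reads + 1)), in pathway order from top to bottom, with 95% confidence intervals from limma. Filled points passed an adjusted p of 0.05: the 14 rises lie between hexokinase and lactate dehydrogenase and Slc2a3 is the 1 fall.

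Glucose enters cells through the SLC2 family, and none of the 3 members was higher in the lipid-rich fraction. Slc2a1, which encodes the general glucose transporter GLUT1, had 5141, 5566 and 6371 normalised reads against 4957, 4768 and 5448. Its groups overlapped (log2 fold change -0.17, 95% confidence interval -0.39 to 0.05, limma adjusted p = 0.323). Slc2a3, which encodes the high-affinity transporter GLUT3, had 553, 589 and 494 against 238, 329.6 and 251. All 3 BODIPY-high values lay below all BODIPY-low values, and the level fell by 1.01 on the log2 scale (SE 0.18, limma adjusted p = 0.00403, at most 0.0232 with any 1 library left out). Slc2a6, a transporter of lysosomal membranes in macrophages, had 279, 323 and 419 against 261, 97.4 and 227. Its groups did not overlap either, but BODIPY-high replicate 1 came close to BODIPY-low replicate 1, and the gene was not called (-0.90, SE 0.34, limma adjusted p = 0.111), although the fit with the replicate block called it as lower (0.0466). Slc2a5, outside the 32 and named after its values were seen, encodes GLUT5, the fructose transporter known as a microglial marker, and had 36389.8, 40400.1 and 35309.7 normalised reads against 27783, 34734 and 30890.1. It was lower in every BODIPY-high library and not called (-0.27, SE 0.10, limma adjusted p = 0.102), but it was called with the replicate block (0.0151) and without BODIPY-high replicate 2 (0.0455, up to 0.317 with another library left out). Neutrophil markers were lower in the same libraries, from 31165 to 82941 in BODIPY-low against 200.2 to 2394 in BODIPY-high, and their part in the fall of Slc2a3 was not tested. Per kilobase of exon, Slc2a1 made up 90.0% ± 0.22 of the 3 transporters in the BODIPY-low group and 93.6% ± 1.10 in the BODIPY-high group (SD, n = 3 each; the two-sided exact permutation test gave p = 0.1, which is as low as 3 against 3 can go).

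Hexokinase, which adds the first phosphate, had 1 isoform that rose, Hk1, and a summed level that overlapped between groups. Hk1, the broadly expressed form that binds mitochondria, had 1194, 1566 and 1248 normalised reads against 1939, 1950.4 and 2242. It rose without overlap (log2 fold change 0.62, SE 0.13, limma adjusted p = 0.00863). Hk2, the inducible form, had 6329, 5955 and 5977 against 6372, 4758 and 5005.5, and Hk3, a form of myeloid cells, had 4337, 4304 and 4192 against 4053, 3988 and 3853. Hk2 overlapped between groups, with BODIPY-high replicate 1 the highest of all 6 libraries, and Hk3 was lower in every BODIPY-high library by a small margin. Neither passed (log2 fold changes -0.19 and -0.11, limma adjusted p = 0.309 and 0.431), although Hk2 was called as lower without BODIPY-high replicate 1 (-0.32, adjusted p = 0.0389). Summed per kilobase of exon, hexokinase came to 2338 ± 47.1 and 2217 ± 155 normalised reads (SD, n = 3 each, two-sided exact permutation p = 0.4). Hk1 made up 6.70% ± 0.998 of that sum in the BODIPY-low group and 10.9% ± 1.37 in the BODIPY-high group (SD, n = 3 each, exact permutation p = 0.1), without overlap. With each gene's longest principal transcript as its length, chosen after seeing the data, those shares were 12.5% and 19.4%.

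Gpi1, the isomerase that turns glucose phosphate into fructose phosphate, rose from 3555, 3902 and 3831 normalised reads to 4932, 5219 and 6535 (log2 fold change 0.55, SE 0.11, limma adjusted p = 0.00790). The groups did not overlap, and BODIPY-high replicate 3 was the highest.

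Phosphofructokinase, the committing step, rose in all 3 of its isoforms. Pfkl, the liver form, which makes up most of the step's reads here, had 7554, 7154 and 7124 normalised reads against 9102, 8601 and 9464. The rise was small and without overlap (log2 fold change 0.31, SE 0.08, limma adjusted p = 0.0240), and leaving out BODIPY-low replicate 2, BODIPY-low replicate 3 or BODIPY-high replicate 3 ended the call (adjusted p up to 0.111). Pfkm, the muscle form, had 126, 164 and 105 against 440.0, 366 and 826, and Pfkp, the platelet form, had 223, 74.6 and 149 against 1673, 908 and 2405. Both rose several fold from low levels (log2 fold changes 1.97, SE 0.30, and 3.50, SE 0.40, limma adjusted p = 0.00161 and 2.67e-04). Of the longest coding transcript of Pfkp, 16.04% of the 100-base windows also lie in Pitrm1 on the other strand, which was not called (903 ± 66.03 to 1104 ± 108 normalised reads, SD, n = 3 each, limma adjusted p = 0.164).

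The rises of Pfkm and Pfkp ran beside the choroid plexus and ependyma markers, whose sums were 18737, 3770 and 7243 normalised reads against 253855, 151836 and 265988. Pfkp had the same order of libraries as these sums within each group, lowest in replicate 2 of both. Pfkm was also lowest in replicate 2 of the BODIPY-high group, but it was highest in replicate 2 of the BODIPY-low group. Whether epithelial RNA carries these isoforms was not tested. Per kilobase of exon, Pfkl made up 95.6% ± 0.53 of phosphofructokinase in the BODIPY-low group and 83.0% ± 5.62 in the BODIPY-high group, Pfkm 3.46% ± 0.80 and 9.67% ± 3.26, and Pfkp 0.97% ± 0.46 and 7.35% ± 2.57 (SD, n = 3 each, two-sided exact permutation p = 0.1 for each). None of the 3 shares overlapped between groups. Pfkp's union of exons (13401 bases) is far longer than its longest principal transcript (4145 bases), and with the latter as the length its shares were 1.75% and 12.9%. Summed over the isoforms, phosphofructokinase stood at 1141 ± 40.05 and 1644 ± 190.4 normalised reads per kilobase of exon, without overlap (SD, n = 3 each, exact permutation p = 0.1).

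**Figure D2:**
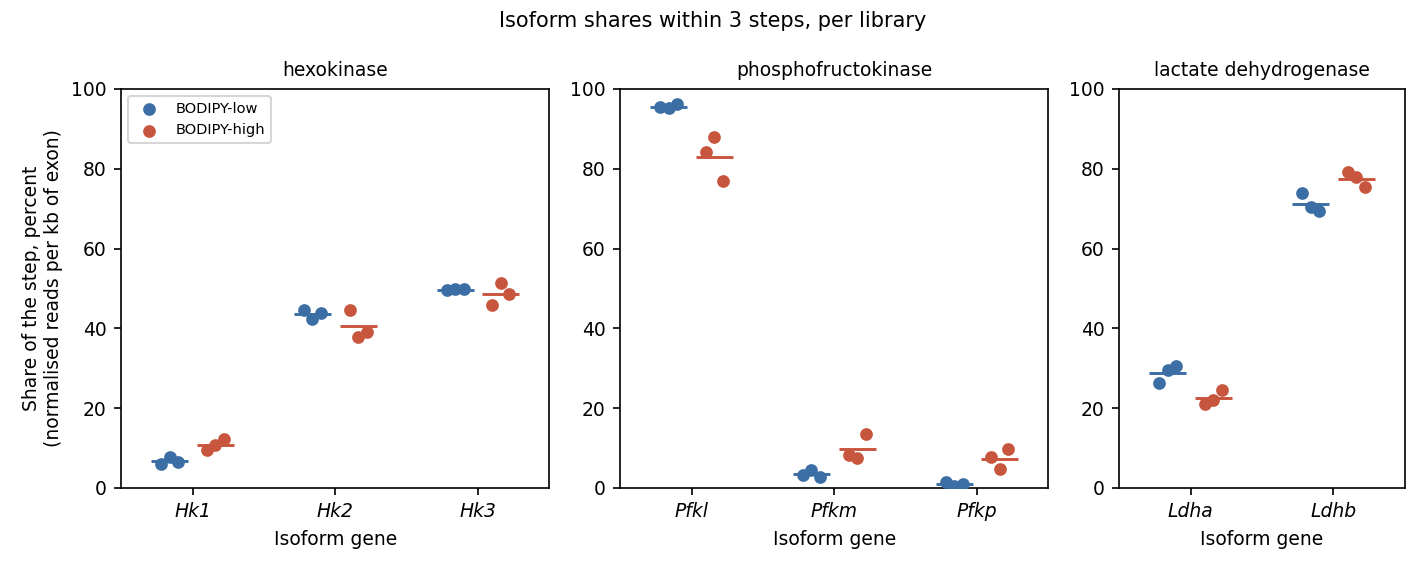
Share of each isoform gene in its step, in percent, from normalised reads per kilobase of exon; points are the 3 libraries of each group and lines the group means. Pfkl drops from 95.6% to 83.0% as Pfkm and Pfkp take larger shares, Hk1 goes from 6.70% to 10.9%, and Ldhb from 71.3% to 77.5%.

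The bifunctional PFKFB enzymes make and break fructose-2,6-bisphosphate, a signal that activates phosphofructokinase and is distinct from the fructose bisphosphate that the pathway itself breaks down, and none of the 3 measured here was called. Pfkfb3, the most kinase-active form, had 6639, 5587 and 5623 normalised reads against 7039.7, 4856 and 5173. In both groups replicate 1 was the highest, and the groups overlapped (log2 fold change -0.08, 95% interval -0.38 to 0.22, limma adjusted p = 0.761). Pfkfb4 ranged from 3477 to 3760.3 against 2635 to 3862, and Pfkfb2 from 299.7 to 412 against 290.0 to 348 (log2 fold changes -0.21 and -0.09, limma adjusted p = 0.339 and 0.803). Some 23.9% of the windows of Pfkfb2 lie in the overlapping transcript Gm29427 on the same strand.

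Of the steps from aldolase to pyruvate kinase, all but enolase had a main gene that was higher in every BODIPY-high library. Aldoa, which cleaves fructose bisphosphate, had 14826, 15224 and 15372 normalised reads against 25156, 24149 and 26705. The spread within each group was small beside the gap, and the log2 fold change was 0.74 (SE 0.08, limma adjusted p = 1.49e-04). Tpi1, which interconverts the triose phosphates, had 5061, 5208 and 5659 against 7586, 7704 and 8953 (0.60, SE 0.09, limma adjusted p = 0.00176). Gapdh, the dehydrogenase often used as a reference gene, had 18737, 20939 and 25613 against 25895, 35381 and 34401. BODIPY-high replicate 1 was barely above BODIPY-low replicate 3, and the call of Gapdh (0.55, SE 0.14, limma adjusted p = 0.0231) ended when replicate 1 or 2 of the BODIPY-low group, or 2 or 3 of the BODIPY-high group, was left out (adjusted p up to 0.1003).

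Pgk1, the first enzyme to return ATP, had 2280.0, 2086 and 2266 normalised reads against 3346, 3484 and 4175. It rose with a wide gap between groups (log2 fold change 0.72, SE 0.11, limma adjusted p = 0.00129). Pgam1, the phosphoglycerate mutase, had 2484, 2205 and 2414 against 2953, 3077 and 3418 (0.41, SE 0.10, limma adjusted p = 0.0186), and leaving out replicate 2 or 3 of the BODIPY-low group, or replicate 3 of the BODIPY-high group, ended its call (adjusted p up to 0.0939). Bpgm, which makes the bisphosphoglycerate that tunes haemoglobin in red cells, ranged from 182 to 229 against 268 to 398, without overlap, but was not called (0.59, SE 0.22, limma adjusted p = 0.1002). Pkm, the pyruvate kinase gene whose splice forms cannot be told apart in gene counts, had 13990, 15234 and 15156 against 22045, 23260 and 27080 (0.70, SE 0.09, limma adjusted p = 6.74e-04). Aldoa, Tpi1, Pgk1 and Pkm kept their calls with any 1 library left out (adjusted p at most 0.0134).

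Some of these genes share sequence with other annotated genes. STAR's gene counts, which the design text names, leave out reads that map to several places. Of the 100-base windows along the longest coding transcript, 78.0% were found in other genes for Gapdh, 67.0% for Pgk1 and 39.7% for Pgam1, so these levels are uncertain. For Aldoa no window was shared, and for Tpi1 0.80%, Ldha 1.28%, Ldhb 8.80% and Pkm 9.82% were. For Eno1, the main enolase of most tissues, 59.0% of windows were found in other genes, most of them in Eno1b. Eno1 had 3 reads over all BODIPY-low and 1 over all BODIPY-high libraries, which is not read as its level, and the part of the shared sequence in this was not tested. Eno1b had 36.6 ± 1.02 and 54.6 ± 1.72 normalised reads (SD, n = 3 each, limma adjusted p = 0.350).

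The other enolases diverged. Eno2, the neuronal form, had 6.86, 25.6 and 20.4 normalised reads against 85.7, 114 and 207, and rose by a log2 fold change of 2.95 (SE 0.53, limma adjusted p = 0.00429). Eno3, the muscle form, ranged from 415 to 532 against 428 to 581 (-0.00386, 95% interval -0.39 to 0.38, limma adjusted p = 0.992). Summed neuron markers ranged from 29.7 to 44.6 in BODIPY-low and from 140.4 to 156 in BODIPY-high libraries. Of the 4 neuron markers high enough to test only Syt1 rose (0, 1.07 and 0 normalised reads against 59.4, 61.2 and 25.4). Choroid plexus markers rose as given above, and the part of either cell type in the rise of Eno2 was not tested.

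Lactate dehydrogenase links pyruvate to lactate, and its gene Ldhb, whose subunit favours the turn of lactate into pyruvate, had the larger log2 fold change. Ldhb had 14373, 11641 and 12151 normalised reads against 22446, 21090 and 20959, a log2 fold change of 0.76 (SE 0.09, limma adjusted p = 3.87e-04). Ldha, whose subunit favours lactate, had 10752, 10261 and 11234 against 12510, 12536 and 14326. Ldha was higher in every BODIPY-high library by a small margin (0.29, SE 0.09, limma adjusted p = 0.0491) and stood at the threshold: edgeR did not call it (adjusted p = 0.0608), and with 1 library left out limma called it only without BODIPY-high replicate 1 (up to 0.200 otherwise). Per kilobase of exon, Ldhb made up 71.3% ± 2.25 of the pair in the BODIPY-low group and 77.5% ± 1.83 in the BODIPY-high group (SD, n = 3 each, two-sided exact permutation p = 0.1), without overlap. The summed level was 11350 ± 963 and 17658 ± 429 normalised reads per kilobase (SD, n = 3 each, exact permutation p = 0.1).

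Monocarboxylate transporters carry lactate and pyruvate across the cell membrane, and neither of the 2 members rose with the enzymes. Slc16a1, which encodes MCT1, had 2130.2, 1923 and 2002.5 normalised reads against 2210.3, 1513 and 1863. Slc16a3, which encodes MCT4, a lactate exporter of glycolytic cells, had 2937.5, 3216 and 3993 against 2077, 3081 and 3069. Both overlapped between groups (log2 fold changes -0.13, 95% interval -0.43 to 0.16, and -0.31, interval -0.67 to 0.04, limma adjusted p = 0.584 and 0.247). Their sum per kilobase was lower in every BODIPY-high library, at 1092 ± 96.3 and 936 ± 55.6 (SD, n = 3 each, two-sided exact permutation p = 0.1). Over the 7 step sums and 15 isoform shares compared, 13 had groups that did not overlap, and the smallest adjusted permutation p was 0.169.

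**Figure D3:**
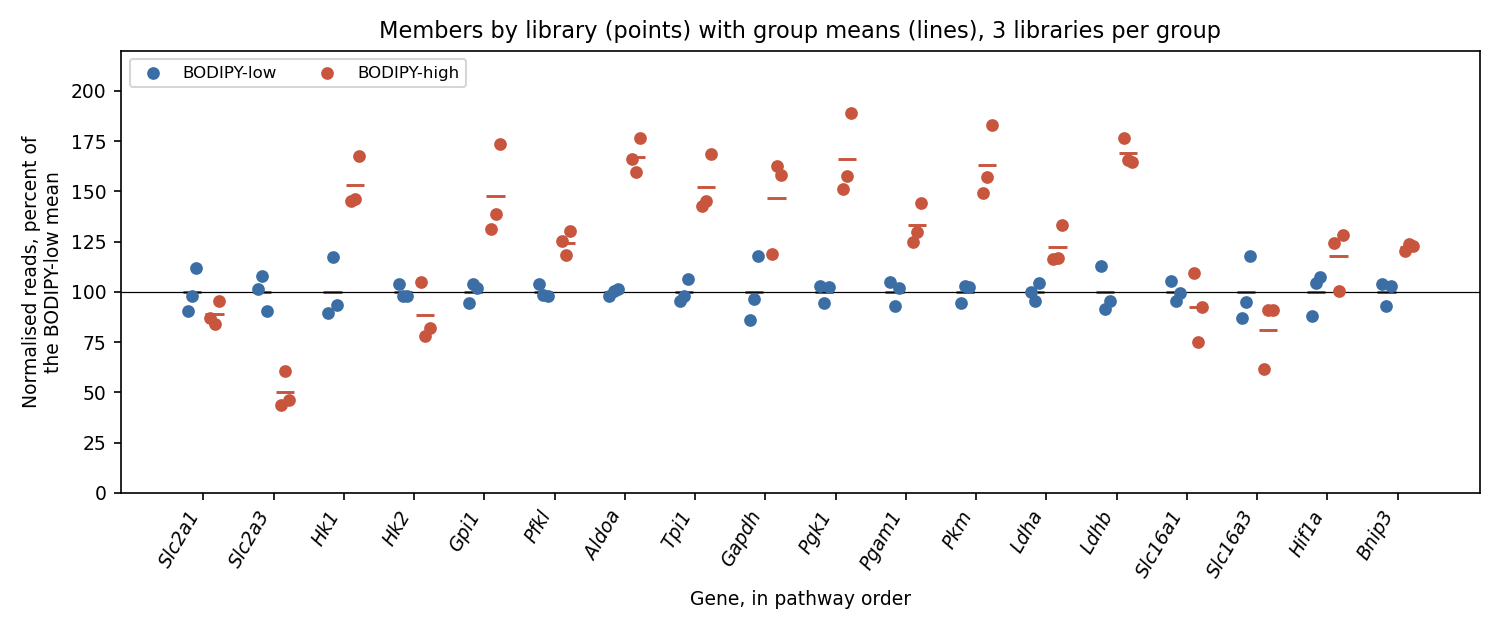
Normalised reads of 18 members in each library, as percent of the mean of the 3 BODIPY-low libraries, in pathway order; points are libraries and lines are group means. The enzymes shown from Gpi1 to Ldhb, with no enolase among them, lie above 100 in all BODIPY-high libraries. Slc2a3 lies near 50, and Slc2a1, Hk2, Slc16a1 and Slc16a3 overlap between groups.

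By limma without the block, none of the 5 HIF-linked regulators was called. Hif1a, the oxygen-sensitive subunit, had 7782, 9273 and 9543 normalised reads against 11036, 8926 and 11363. The groups overlapped through BODIPY-high replicate 2 (log2 fold change 0.23, 95% interval -0.02 to 0.48, limma adjusted p = 0.215). Bnip3, a mitophagy receptor and common HIF target, had 2778.5, 2484 and 2756 against 3209.9, 3314 and 3285. All 3 BODIPY-high values were higher, at a log2 fold change of 0.29 (SE 0.09), narrowly missing the threshold in limma (adjusted p = 0.0555) and called as higher by DESeq2 (0.0307) and by limma with the replicate block (0.0456), with 33.5% of its windows found in other genes. Pdk1, the kinase that shuts pyruvate out of mitochondria, had 3124, 4246 and 4126 against 3158, 3309.5 and 3826 (-0.15, limma adjusted p = 0.502), and its groups overlapped. Egln1, the main prolyl hydroxylase that marks HIF for breakdown, ranged from 1304 to 1649.5 against 1656 to 1955 (0.24, limma adjusted p = 0.243). Egln3, a hydroxylase that HIF itself raises, ranged from 126 to 269 against 107 to 315 (-0.18, limma adjusted p = 0.830), with replicate 3 the highest in both groups.

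Genes outside the 32 were read from lists of the wider pathway. Of 91 tested genes in 8 lists, 19 rose and 2 fell, against 9.79% and 3.52% of all tested genes, and the largest rises, of Car12, Slc2a12 and Slc16a8, were from low levels. Among 14 tested further isoforms and side enzymes 6 rose and 1 fell (median log2 fold change 0.46, against -0.01 over all genes). Aldoc, the brain aldolase, had 136, 156 and 156 normalised reads against 448, 378 and 683 (1.70, limma adjusted p = 8.58e-04). Aldoc is itself in the list of 8 astrocyte markers, of which 1 other, Aldh1l1, rose. The sums of that list, Aldoc included, ranged from 7189 to 8243 in BODIPY-low and from 8179 to 10434 in BODIPY-high libraries. Most of these reads were from Slc1a3, with 6570 to 7712 and 6894 to 8954 (0.11, not called). The median log2 fold change of the 8 markers was 1.28, and the part of astrocyte RNA was not tested. Slc16a8, a monocarboxylate transporter known from choroid plexus and retinal pigment epithelium, went from 14.5 ± 10.00 to 313 ± 49.6, and Emb, which encodes the transporter partner embigin, from 57.9 ± 20.8 to 837 ± 294 (SD, n = 3 each, 4.55 and 3.83, limma adjusted p = 1.81e-04 and 5.85e-05). Bsg, which encodes basigin, the partner that carries MCT1 and MCT4 to the membrane, rose from 12217 ± 1800.2 to 19364 ± 1375 (0.67, limma adjusted p = 0.00221), while Slc16a7, which encodes MCT2, was not called (-0.26, adjusted p = 0.244). The 1 fall, named after its value was seen, was Adpgk, an ADP-dependent glucokinase (-0.73, limma adjusted p = 0.0108), and its call was lost without BODIPY-high replicate 3 (0.0536). Ldhd, a D-lactate dehydrogenase, rose by 2.56 and also lost its call without that library (limma adjusted p = 0.0630).

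**Figure D4:**
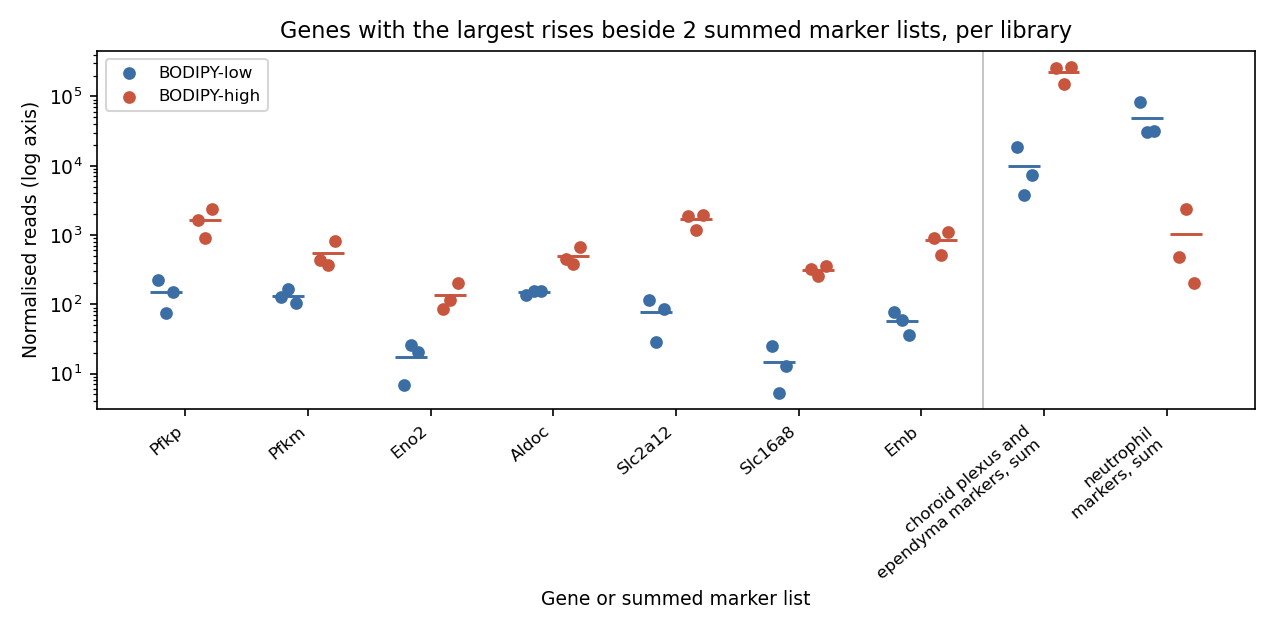
Normalised reads (log axis) of 3 members and 4 further pathway genes with large rises, beside the summed choroid plexus and ependyma markers and the summed neutrophil markers; points are libraries and lines group means. Pfkp, Slc2a12, Slc16a8 and the choroid plexus sums are lowest in replicate 2 of both groups.

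In the lists of other glucose routes, counts are read against the 9.79% of all tested genes that rose. Of 6 tested further glucose and fructose transporters only Slc2a12, which encodes GLUT12, rose (76.5 ± 44.0 to 1681 ± 427 normalised reads, SD, n = 3 each, log2 fold change 4.62, limma adjusted p = 7.42e-05). Of 10 tested pentose phosphate genes 1 rose, Prps2, a phosphoribosyl pyrophosphate synthetase (0.58, adjusted p = 0.00529). Of 17 glycogen genes 3 rose: Pygm, the muscle glycogen phosphorylase (44.9 ± 16.7 to 515 ± 227, n = 3 each, 3.43, limma adjusted p = 2.54e-04), Ugp2, which makes UDP-glucose (0.39), and Gaa, the lysosomal glucosidase (0.33). Among 4 gluconeogenic genes Pcx, the pyruvate carboxylase, rose (1.15, adjusted p = 0.00423). Of 13 genes that govern pyruvate dehydrogenase Pdk4, Pdk2 and Pdha1 rose (3.63, 0.69 and 0.50, limma adjusted p = 0.0140, 0.00349 and 0.0198). Calls were lost with 1 library left out for Ugp2, Gaa, Pdk4 and Pdha1 (adjusted p up to 0.113, 0.0977, 0.0758 and 0.0845), each without BODIPY-high replicate 3, for Ugp2 and Pdk4 also without BODIPY-high replicate 1, and for Ugp2, Gaa and Pdha1 also without BODIPY-low replicate 3. Ugp2 and Pdha1 were lost without BODIPY-low replicate 2 as well.

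Among HIF target genes outside glycolysis, 3 of 21 tested genes rose and 1 fell, where 9.79% and 3.52% of all tested genes did. Their median log2 fold change was 0.19, against -0.01 over all tested genes. Vegfa, the classic angiogenic target, had 138, 109 and 169 normalised reads against 190.3, 134 and 259, and the groups overlapped (0.46, 95% interval -0.18 to 1.10, limma adjusted p = 0.355). Car12, a carbonic anhydrase of epithelia, rose from 82.1 ± 54.8 to 2233 ± 619 (SD, n = 3 each, 4.94, limma adjusted p = 5.14e-05). Higd1a, a hypoxia-induced mitochondrial protein, Bnip3l, a relative of Bnip3, and Tfrc, the transferrin receptor, changed by 0.60, 0.27 and -0.52 (limma adjusted p = 0.0360, 0.0430 and 0.0372). Bnip3l was not called by edgeR, and with 1 library left out its call was lost each time (adjusted p up to 0.147), that of Tfrc held only without BODIPY-high replicate 1 (up to 0.176 otherwise) and that of Higd1a only without BODIPY-low replicate 1 or BODIPY-high replicate 1 (up to 0.145 otherwise). The 9 tested genes of the HIF machinery had a median log2 fold change of -0.26, and 3 of the 9 were positive. In 4 of them every BODIPY-high library was lower and in 2 every one was higher, against 13.4% and 18% of all tested genes. None was called as fallen by limma or edgeR. In limma 7 of the 9, in either direction, had an unadjusted p under 0.05. The share of all genes at that threshold was not taken, so no result is read from this count. DESeq2 called 1 fall and limma with the replicate block 2. The 1 rise was Epas1, the HIF alpha subunit typical of endothelium and epithelium, from 36.9 ± 7.81 to 113 ± 27.3 (1.58, adjusted p = 0.0126), and it was lost without BODIPY-low replicate 3 or BODIPY-high replicate 3 (up to 0.0667). Vhl, the ubiquitin ligase subunit that removes HIF, had 6534, 6281 and 6275 against 5509, 5367.5 and 5657, lower in every BODIPY-high library but not called (-0.21, SE 0.08, limma adjusted p = 0.112). Choroid plexus markers were higher in the same libraries (sums from 3770 to 18737 against 151836 to 265988), and their part in these rises was not tested.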

How the data were processed

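RNA sequencing was read from 6 libraries, 3 per group. The labels' protocols name SmartSeq v4 for cDNA and Nextera XT for the libraries, kits that keep no strand, so genes that overlap on opposite strands cannot be told apart. The submitters' processing notes list FastQC 0.11.4, STAR 2.5.3a, DESeq2 and the builds mm10 and mm9, and the series' design text names mm10 and STAR's gene counts. The annotation and strand column used for counting were not given in those sources.

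Values in the deposited table are a signal, read counts that the authors divided by 1 size factor per library. Every value (100%) was a whole multiple of its library's smallest value to within 0.01 read, which gave back the reads. Precision follows from those depths and from the spread of 3 libraries.

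The main test was limma 3.58.1 in R 4.3.3 (pseudocount 1, mean of 10 or more, trended variance, no block, two-sided). A check on simulated data used the same spread for every gene and changes larger than most rises here. It therefore does not cover those smaller rises. edgeR 4.0.16 (quasi-likelihood) and DESeq2 1.42.0 on recovered reads, other pseudocounts, filters, scaling, a robust variance, a replicate block and leaving out libraries were alternatives. Step sums and shares used lengths from GENCODE M21 (GRCm38, which all 32 members matched) and exact permutation tests in scipy 1.17.1. No enolase sum was made. The longest principal transcript was added as a length after the data were seen. Every member is described, and of each pathway list every called gene is named if 4 or fewer were called, otherwise the 4 largest changes, with Aldoc, Slc16a7, Bsg, Epas1, Vhl, Vegfa and Bnip3l added. Promoter letters come from RefSeq. The members and lists were chosen with earlier results of these data known. Lists of 13 cell types were summed, and those not described with the results (monocyte, border macrophage, oligodendrocyte, endothelium, mural cell, T and NK cell, B cell and erythroid cell) are given under the closing observations.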

Additional observations from a re-analysis of the deposited data

How the results depend on the processing

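Depth was high for most members, and 3 libraries per group limit the precision. By limma 14 members rose, with 13 by edgeR, 15 by DESeq2 and from 10 to 14 when 1 library was left out, and 10 of the 14 held each time. Members that fell numbered 1, and from 1 to 2 with 1 library left out. Replicate numbers are shared between groups, and every library correlated best with its own number (r = 0.11, 0.14 and 0.07, against at most 0.0016 between different numbers). The labels do not say that a number marks a shared pool, so the main test did not take the numbers as pairs. With the replicate as a block 15 members rose and 2 fell, and calls over all genes went from 1706 to 2211.

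The sign changed for Eno3 under DESeq2 (log2 fold change 7.24e-04). With 1 library left out the log2 fold change ranged from -0.18 to 0.047 for Pfkfb2, from -0.24 to 0.025 for Pfkfb3, from -0.15 to 0.073 for Eno3, from -0.26 to 0.0089 for Slc16a1 and from -0.69 to 0.13 for Egln3. The differences in share ranged from -2.35 to 0.35 percentage points for Hk3, from -0.11 to 0.36 for Pfkfb2, from -2.62 to 5.53 for Pfkfb3, from -5.64 to 2.62 for Pfkfb4, from -0.029 to 1.23 for Bpgm and from -7.15 to 2.35 for Slc16a3. The cause was not tested.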

Other observations

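Marker sums of other cell types, in normalised reads, are given as ranges over the 3 libraries of the BODIPY-low and then the BODIPY-high group. Monocyte markers ranged from 6223 to 13095 and from 429 to 1282, and most of the BODIPY-low reads were from Chil3 (11172, 4970 and 6087). Of the 5 tested, 3 fell: Chil3, Hp and Ly6c2. Ccr2 and F13a1 were not called, with log2 fold changes of -0.92 and 0.55. Border macrophage markers ranged from 789.6 to 1099 and from 1340.3 to 1796, and 2 of the 7 tested rose. Oligodendrocyte markers ranged from 1937 to 2419 and from 2613 to 3697, and none of the 4 tested was called. Endothelial markers ranged from 768 to 1084 and from 1197 to 1218. Of the 8 tested only Slco1a4 rose (122, 100.2 and 79.8 against 532, 277 and 561), and their median log2 fold change was 0.059. Mural cell markers ranged from 67.1 to 266 and from 206 to 228, and of the 4 tested Vtn rose and Cspg4 fell (log2 fold changes 3.53 and -2.68). Markers of T and NK cells ranged from 11.7 to 32.5 and from 0 to 5.66, of B cells from 531 to 837 and from 409 to 629, and of erythroid cells from 9.28 to 94.9 and from 0.94 to 281.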
